A study of Homo sapiens with 4 samples.

Results

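The genes described here are 41 targets and partners of the transcription factor ATF4 that supply the cell with amino acids, taken by symbol from a fixed list out of 60558 genes in each library. They fall into 6 classes: stress factors with their feedback genes, serine and one-carbon enzymes, other amino acid enzymes, amino acid transporters, cytosolic tRNA synthetases with the tRNA exporter XPOT, and secreted or surface targets. The list was drawn up by function but with earlier results of these data known, and all 41 symbols were found. Shares of all genes given beside its counts therefore describe the list and do not test it. Of them, 40 had enough reads to be compared, and FGF21 had 1 read in HCC827-myr-AKT1 and 0 in the other libraries, where the floor used is 3 reads.

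A549 and HCC827, a pair of established human LAD (lung adenocarcinoma) cell lines, were transduced with a vector or with myr-AKT1, an AKT1 that carries a myristoylation signal and stays active at the membrane. Each line gave a control group (A549-vector, HCC827-vector) and a group with active AKT1 (A549-myr-AKT1, HCC827-myr-AKT1) of 1 library each, which were sequenced to find transcripts that active AKT changes. No difference within a cell line therefore has a replicate check, and variation between cultures was not measured. The promoter that drives the construct and the number of clones are not given in the sources used here, and the labels name no other treatment of the cultures.

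Recovered reads ranged from 16322183 in HCC827-myr-AKT1 to 33530317 in A549-vector, so values of HCC827-myr-AKT1 rest on the fewest reads. The normalized count of AKT1 was 4243 in A549-vector and 6297 in A549-myr-AKT1 (1.48-fold higher) and 2175 in HCC827-vector and 4805 in HCC827-myr-AKT1 (2.21-fold higher). Transcripts of the construct and of the cell's own AKT1 are counted together in these values. RPKM scales reads by transcript length and library depth and so compares levels between genes and lines. The summed level of 6 epithelial markers lay between 2305 and 4487 RPKM in the 4 libraries. Markers of leukocytes, endothelium and fibroblasts summed to between 1.07 and 10.7 RPKM, highest in A549-myr-AKT1, with 10 of the 12 under 1 RPKM everywhere and CD3E and COL1A2 at 0. Their part in the results below was not tested.

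ATF4 is the effector of the integrated stress response. When a stress-sensing kinase phosphorylates the translation factor eIF2 alpha, general protein synthesis slows while the ATF4 mRNA is translated more, so that ATF4 activity is set largely by translation and only in part by its mRNA level. The ATF4 protein pairs with C/EBP factors on DNA and raises genes that make amino acids, carry them across the membrane and load them onto tRNA, along with DDIT3, TRIB3 and CHAC1, which act when stress persists. Growth signalling through AKT and mTORC1 is known to raise ATF4 as well. ATF4 protein was not measured in these libraries.

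With myr-AKT1, most of the amino acid supply genes were lower in A549, and most, though not always the same ones, were higher in HCC827. Over the 40 genes the median log2 fold change, which is the log2 ratio of normalized counts in myr-AKT1 cells to those in vector cells of the same line, was -0.43 in A549 and 0.76 in HCC827. Over all genes compared, the medians were -0.03 and -0.04. In 36 of the 40 genes (90%) the change in HCC827 lay above that in A549, against 53.7% of all genes. Since these are bulk libraries, fewer cells that express a gene and less of its RNA per cell cannot be told apart.

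Each log2 fold change is given with a 95% Clopper-Pearson interval from the recovered reads, which covers counting error only. By these intervals 28 of the 40 genes were lower in A549 (36.5% of all genes were) and 8 were higher (33.3% of all genes). In HCC827 30 were higher, where 33.5% of all genes were, and 8 were lower, where 37.1% of all genes were. The interval lay below 0 in A549 and above 0 in HCC827 for 19 of the 40 genes (47.5%), a combination met by 1142 of 15704 genes, or 7.27%. These 19 were ATF4, PHGDH, PSAT1, MTHFD2, ASNS, PYCR1, CTH, SLC7A1, SLC7A5, SLC3A2, SLC1A4, SLC1A5, AARS1, GARS1, SARS1, WARS1, YARS1, MARS1 and XPOT. The reverse combination held for DDIT4 alone among the 40, against 7.39% of all genes. Both intervals lay above 0 for 7 genes, which were DDIT3, SESN2, NUPR1, ALDH18A1, GPT2, STC2 and VLDLR (18.0% of all genes), and below 0 for another 7, which were ATF5, PSPH, SHMT2, SLC38A2, NARS1, EPRS1 and TARS1 (24.1% of all genes). The difference between the lines itself was not tested, since each line has 1 library per condition.

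**Figure D1:**
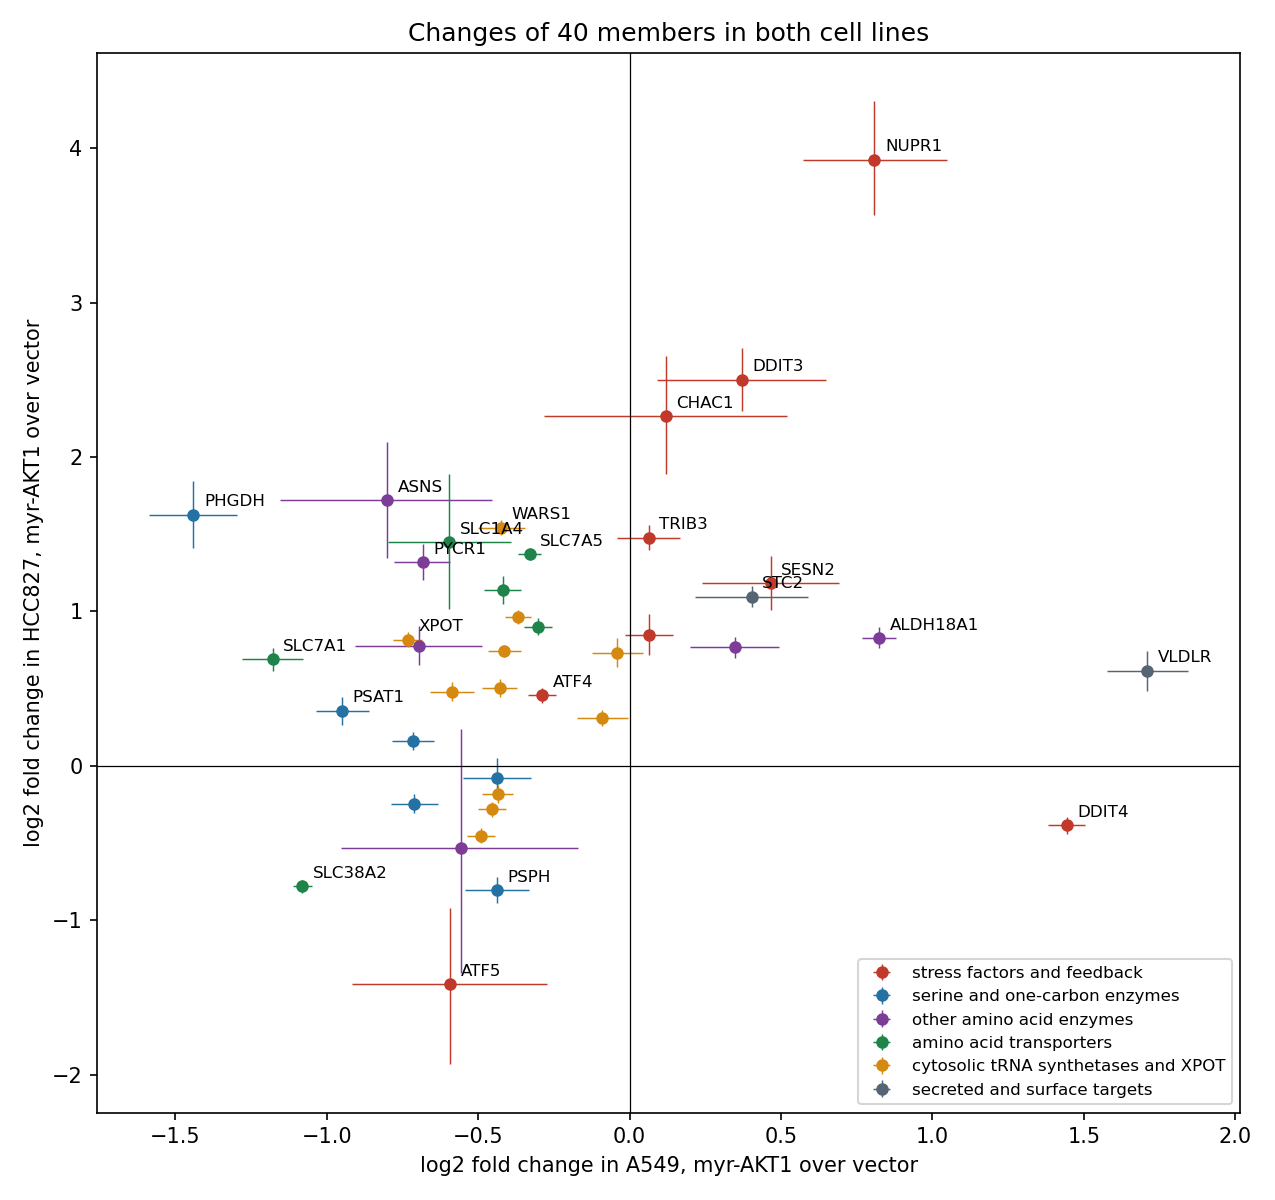
Log2 fold change of myr-AKT1 over vector in A549 (x axis) and in HCC827 (y axis) for the 40 genes with enough reads, coloured by class; bars are 95% counting intervals. The upper left part holds PHGDH, ASNS, most transporters and most synthetases, and DDIT4 is the only gene in the lower right.

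By a rule of size, with a log2 fold change of at least 1 in either direction over a floor of 10 for the pair's mean normalized count, 2 of the 40 genes were called higher in A549 (DDIT4 and VLDLR) and 3 lower (PHGDH, SLC7A1 and SLC38A2). Of all genes compared in A549, 15.1% were called higher and 9.87% lower. In HCC827, 13 were called higher, where 14.1% of all genes were: DDIT3, TRIB3, CHAC1, SESN2, NUPR1, PHGDH, ASNS, PYCR1, SLC7A5, SLC1A4, SLC1A5, WARS1 and STC2. ATF5 alone was called lower in HCC827, against 12.4% of all genes. No gene of the group was called in the same direction in both lines, where 4.6% of all genes were called higher and 4.08% lower. PHGDH alone was called in opposite directions, lower in A549 and higher in HCC827, as were 75 of 15704 genes in all.

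ATF4 and C/EBP factors bind a composite DNA motif with the letters TGATGNAA, where N is any base, or TTNCATCA when read from the other strand. Promoter windows of 300 bases, from 250 before to 50 after a transcription start, were taken from RefSeq on GRCh38.p14 and searched on both strands. A window was found for 35 of the 41 genes, all except NUPR1, PSPH, SHMT2, PYCR1, GPT2 and YARS1. The motif was present for 15 of the 35 (42.9%), against 1217 of 27305 genes with a window (4.46%) and 3.62% of the 35116 windows. Some genes have more than 1 window, and the 35 genes had 58 in all. Since genes of this group are known in part through such motifs, their share describes the group and is not a result about these cells. Transporters held it in 4 of 6 genes and the synthetases with XPOT in 6 of 10. Among genes lower in A549 and higher in HCC827 it was present in 8 of 17 (47.1%), and among the others in 7 of 18 (38.9%).

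The promoters of 3 genes are shown because they include the stress gene CHAC1, asparagine synthetase (ASNS), and the serine synthesis enzyme PHGDH, called in opposite directions in the lines. Each run holds the 250 bases before a RefSeq start, 5′ to 3′ on the gene's own strand, with the composite motif in capitals. They are CHAC1 at chr15:40953221-40953470 on the plus strand, ASNS at chr7:97872409-97872658 on the minus strand, and PHGDH at chr1:119711684-119711933 on the plus strand. ASNS has another RefSeq window, whose 250 bases at chr7:97872166-97872415 lack the motif and are not shown.
CHAC1: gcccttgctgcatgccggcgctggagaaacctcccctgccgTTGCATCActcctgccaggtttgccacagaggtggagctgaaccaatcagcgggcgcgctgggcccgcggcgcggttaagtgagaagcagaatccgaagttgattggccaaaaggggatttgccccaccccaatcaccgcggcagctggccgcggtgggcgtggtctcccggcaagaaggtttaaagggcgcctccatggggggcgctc
ASNS: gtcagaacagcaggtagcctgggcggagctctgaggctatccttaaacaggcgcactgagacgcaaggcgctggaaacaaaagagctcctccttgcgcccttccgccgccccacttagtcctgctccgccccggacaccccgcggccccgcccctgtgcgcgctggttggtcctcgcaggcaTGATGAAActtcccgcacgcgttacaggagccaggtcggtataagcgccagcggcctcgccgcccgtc
PHGDH: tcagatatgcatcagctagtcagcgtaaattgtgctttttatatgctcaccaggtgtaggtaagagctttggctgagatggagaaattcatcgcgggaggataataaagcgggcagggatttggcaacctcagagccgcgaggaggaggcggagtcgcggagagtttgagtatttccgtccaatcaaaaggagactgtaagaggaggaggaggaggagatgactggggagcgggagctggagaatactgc
The motif of CHAC1 lies at positions -209 to -202 from the start and that of ASNS at -68 to -61, and the letters are not in the window of PHGDH.

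The sites of 7 more genes are shown to compare transporters, synthetases and the partner factor CEBPG, with 20 bases on either side of the motif, or 10 where it lies at or past the start. They were read on the gene's strand at chr19:33374051-33374098 (CEBPG, plus), chr19:46784884-46784931 (SLC1A5, minus), chr16:70289666-70289713 (AARS1, minus), chr7:30594825-30594872 (GARS1, plus), chr2:64989382-64989409 (SLC1A4, plus), chr13:29595664-29595691 (SLC7A1, minus) and chr12:57488054-57488081 (MARS1, plus).
CEBPG: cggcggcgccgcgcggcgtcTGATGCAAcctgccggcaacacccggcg
SLC1A5: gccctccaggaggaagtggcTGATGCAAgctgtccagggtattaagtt
AARS1: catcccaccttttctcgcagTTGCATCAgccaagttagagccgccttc
GARS1: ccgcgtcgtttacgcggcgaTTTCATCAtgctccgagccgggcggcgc
SLC1A4: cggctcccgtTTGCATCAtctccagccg
SLC7A1: ggcgcactgcTGATGAAAcctggcgccg
MARS1: ccggttccggTTGCATCAgcgagggatt
The motif read TGATGCAA in CEBPG and SLC1A5, TGATGAAA in SLC7A1, TTGCATCA in AARS1, SLC1A4 and MARS1, and TTTCATCA in GARS1. The motif of SLC1A5 lies at positions -97 to -90 and that of AARS1 at -187 to -180, whereas those of SLC1A4 and MARS1 span the start and that of SLC7A1 follows it, at positions 8 to 15.

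**Figure D2:**
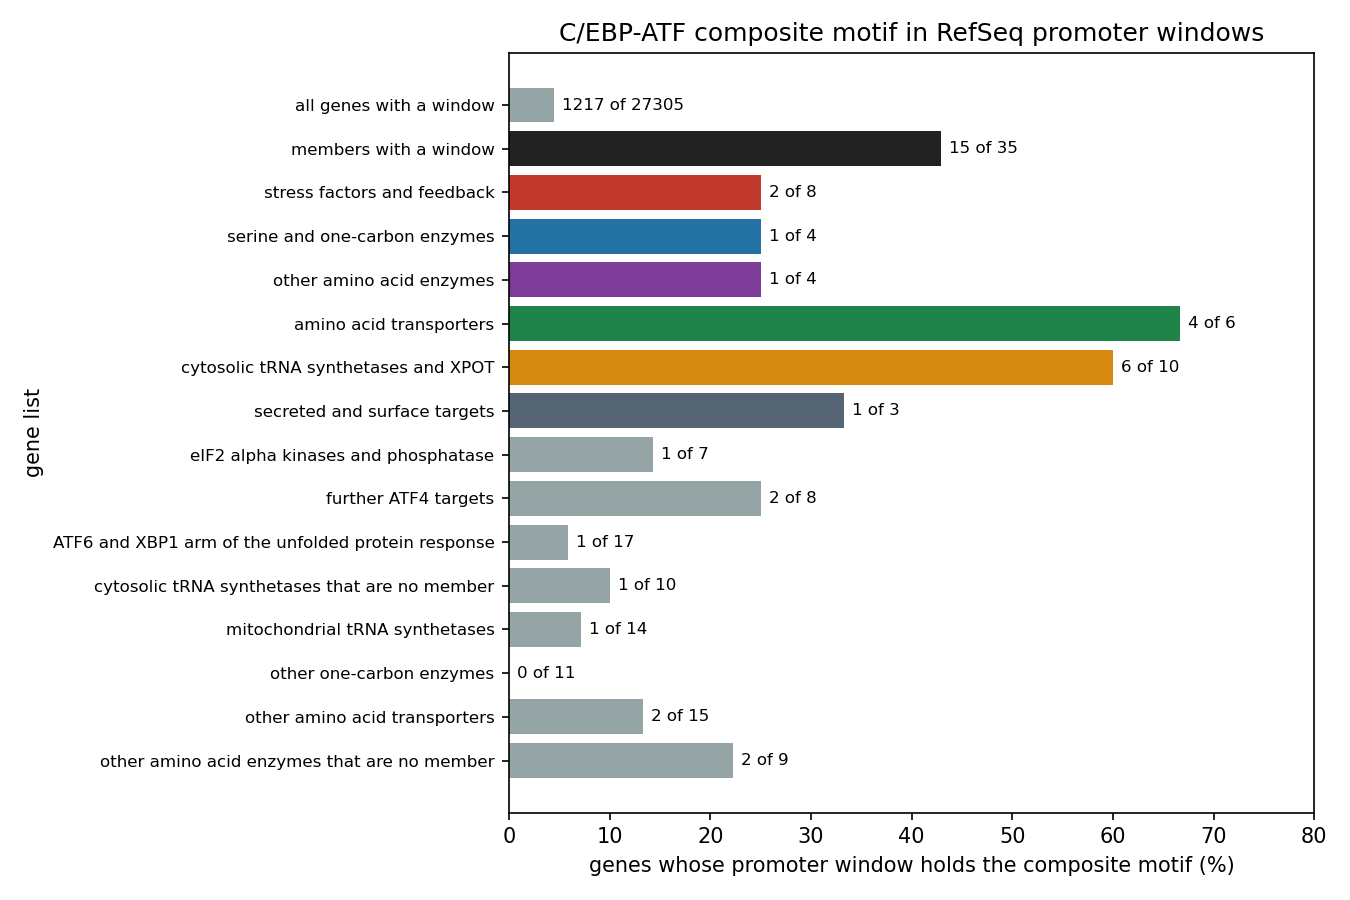
Share of genes (x axis, %) whose RefSeq promoter window holds the composite motif, by gene list (y axis), with the number of genes beside each bar. All genes with a window stand at 4.46%, the group at 42.9% and the synthetases that are not in the group at 10%.

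Of the 9 stress factors, 7 were higher with myr-AKT1 in HCC827 (33.5% of all genes) and 2 were lower (37.1%) by counting interval. In A549 4 were higher (33.3% of all genes) and 2 lower (36.5%). The median log2 fold change of the 9 was 1.18 in HCC827, with 5 called higher by the rule of size (14.1% of all genes) and 1 lower (12.4%). In A549 it was 0.12, with 1 called higher (15.1% of all genes) and none lower (9.87%). ATF4 itself had normalized counts of 8497 (vector) and 6958 (myr-AKT1) in A549 and 6287 (vector) and 8623 (myr-AKT1) in HCC827; these values are scaled within a cell line, so that only values of the same line compare. The A549-myr-AKT1 library was lower than its vector library and the HCC827-myr-AKT1 library was higher. Its log2 fold change was -0.29 (-0.33 to -0.24) in A549 and 0.46 (0.41 to 0.50) in HCC827, both short of the call.

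DDIT3, which encodes the factor CHOP that promotes death of stressed cells, had normalized counts of 189 (vector) and 245 (myr-AKT1) in A549 and 197 (vector) and 1115 (myr-AKT1) in HCC827. As RPKM, DDIT3 stood at 7.17 (vector) and 9.41 (myr-AKT1) in A549 and 10.1 (vector) and 60.1 (myr-AKT1) in HCC827. The HCC827-myr-AKT1 library was the high one, and DDIT3 was 5.66-fold higher in HCC827, with a log2 fold change of 2.50 (2.3 to 2.71). In A549 the log2 fold change was 0.37 (0.09 to 0.65). Of its exon bases, 27.2% overlap MARS1 on the opposite strand, and whether the counting used strand is not given in the sources used here. CHAC1, which degrades glutathione, had normalized counts of 102 (vector) and 111 (myr-AKT1) in A549 and 62.0 (vector) and 298 (myr-AKT1) in HCC827, and its RPKM of 9.55 in HCC827-myr-AKT1 was likewise the highest, against at most 2.53 in the other libraries. In HCC827 it was 4.81-fold higher, and in A549 its interval included 0, at 0.12 (-0.28 to 0.52). TRIB3, a pseudokinase that binds AKT and is induced by ATF4 and DDIT3, had 1464 (vector) and 1529 (myr-AKT1) in A549 and 1619 (vector) and 4509 (myr-AKT1) in HCC827. The interval of the A549 pair included 0, at a log2 fold change of 0.06 (-0.04 to 0.17), and in HCC827 TRIB3 was 2.79-fold higher.

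NUPR1, a small nuclear protein induced by stress, had the highest ratio of the group in HCC827. Its recovered reads were 259 (vector) and 346 (myr-AKT1) in A549 and 69 (vector) and 662 (myr-AKT1) in HCC827, and it was 1.75-fold higher in A549 and 15.2-fold higher in HCC827, at 3.93 (3.57 to 4.30) on the log2 scale. SESN2, which senses leucine and restrains mTORC1, was higher in both lines. Its normalized counts were 279 (vector) and 386 (myr-AKT1) in A549 and 363 (vector) and 825 (myr-AKT1) in HCC827, 1.38-fold higher in A549 and 2.27-fold higher in HCC827. CEBPG, the dimer partner of ATF4, was level in A549 at 0.06 (-0.02 to 0.14) and 1.8-fold higher in HCC827, short of the call.

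DDIT4 and ATF5 went another way. DDIT4, which encodes REDD1, an inhibitor of mTORC1, had normalized counts of 2837 (vector) and 7719 (myr-AKT1) in A549 and 6015 (vector) and 4604 (myr-AKT1) in HCC827. It was 2.72-fold higher with myr-AKT1 in A549, at 1.44 (1.38 to 1.5) on the log2 scale, and 1.31-fold lower in HCC827, at -0.39 (-0.44 to -0.33). ATF5, a related factor translated under the same stress, had normalized counts of 214 (vector) and 142 (myr-AKT1) in A549 and 141 (vector) and 52.8 (myr-AKT1) in HCC827. Both myr-AKT1 libraries were below their vector libraries, 1.51-fold lower in A549 and 2.66-fold lower in HCC827. The 4 ATF5 values rest on between 42 and 245 reads, and 19.5% of its exon bases overlap NUP62 on the opposite strand.

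In the serine and one-carbon class, all 6 enzymes were lower with myr-AKT1 in A549 by counting interval (36.5% of all genes were). The median log2 fold change was -0.71. In HCC827 3 of the 6 were higher (33.5% of all genes), with a median of 0.04. PHGDH, which takes the first step of serine synthesis from glycolysis, is gene ENSG00000092621 at chr1:119648411-119744218 on GRCh38. Its normalized counts were 1544 (vector) and 569 (myr-AKT1) in A549 and 209 (vector) and 646 (myr-AKT1) in HCC827. A549-vector stood far above A549-myr-AKT1, and HCC827-vector stood below HCC827-myr-AKT1. PHGDH was 2.71-fold lower in A549, at -1.44 (-1.59 to -1.30) on the log2 scale, and 3.09-fold higher in HCC827, at 1.63 (1.41 to 1.85). As RPKM, PHGDH stood at 28.3 (vector) and 10.6 (myr-AKT1) in A549 and 5.16 (vector) and 16.8 (myr-AKT1) in HCC827, with a wider gap between the vector libraries than between the myr-AKT1 libraries.

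PSAT1, the next enzyme of the serine pathway, had normalized counts of 3276 (vector) and 1698 (myr-AKT1) in A549 and 1726 (vector) and 2209.6 (myr-AKT1) in HCC827. It was 1.93-fold lower in A549 and 1.28-fold higher in HCC827. PSPH, which takes the last step, was lower in both lines, at -0.44 (-0.54 to -0.33) in A549 and -0.80 (-0.89 to -0.72) in HCC827, so that the 3 enzymes of the pathway did not share a direction in HCC827. SHMT2, which passes the carbon of serine to folate in mitochondria, was also lower in both, at -0.71 (-0.79 to -0.63) and -0.25 (-0.31 to -0.19). Of the mitochondrial folate enzymes, MTHFD2 was at -0.71 (-0.78 to -0.64) in A549 and 0.16 (0.10 to 0.22) in HCC827, and MTHFD1L was at -0.44 (-0.55 to -0.32) and -0.08 (-0.21 to 0.05), the latter interval including 0.

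Among the other amino acid enzymes, 4 of 6 were lower (36.5% of all genes) and 2 higher (33.3%) in A549 by counting interval. In HCC827 5 of 6 were higher (33.5% of all genes), and the class median was 0.80 against -0.62 in A549. ASNS, which makes asparagine from aspartate and glutamine and whose promoter is shown above, had its recovered reads at 226 (vector) and 99 (myr-AKT1) in A549 and 89 (vector) and 185 (myr-AKT1) in HCC827. The vector library held more reads in A549 and fewer in HCC827. ASNS was 1.74-fold lower in A549, at -0.80 (-1.16 to -0.45) on the log2 scale, and 3.29-fold higher in HCC827, at 1.72 (1.35 to 2.10). Of its exon bases, 49.3% lie in a long non-coding gene on the same strand, which had 78, 167, 108 and 166 reads in the same order of libraries. The overlap is 2415 bases, and the canonical ASNS transcript has 2385. How reads in shared bases were counted is not given in the sources used here. Many reads of ASNS could be uncounted or given to the other gene, and its ratios could rest on the remainder.

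The proline pathway was split. ALDH18A1, its first enzyme, was higher in both lines by similar ratios, with normalized counts of 3817 (vector) and 6759 (myr-AKT1) in A549 and 2584 (vector) and 4589 (myr-AKT1) in HCC827. It was 1.77-fold higher in A549 and 1.78-fold higher in HCC827. PYCR1, its last enzyme in mitochondria, had normalized counts of 2586 (vector) and 1610.0 (myr-AKT1) in A549 and 815 (vector) and 2033 (myr-AKT1) in HCC827. It was 1.61-fold lower in A549 and 2.5-fold higher in HCC827, at 1.32 (1.21 to 1.43) on the log2 scale. CTH and CBS turn homocysteine into cysteine. CTH was 1.62-fold lower in A549 and 1.71-fold higher in HCC827. CBS had 164, 85, 48 and 21 reads and was lower in both, although its HCC827 interval, -0.53 (-1.34 to 0.24), included 0 and reads from a near-identical copy of the gene make its counts uncertain. GPT2, a mitochondrial enzyme that interconverts alanine and glutamate, was 1.27-fold higher in A549 and 1.7-fold higher in HCC827.

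By counting interval, all 6 amino acid transporters were lower with myr-AKT1 in A549 (36.5% of all genes), and 5 were higher in HCC827 (33.5%). The class medians were -0.51 and 1.02. SLC7A5 is the leucine exchanger LAT1 and SLC3A2 is its heavy chain, which carries it to the membrane. SLC7A5 had normalized counts of 13174 (vector) and 10479 (myr-AKT1) in A549 and 5885 (vector) and 15228 (myr-AKT1) in HCC827. SLC3A2 had 8620.0 (vector) and 6989 (myr-AKT1) in A549 and 3654 (vector) and 6825 (myr-AKT1) in HCC827. Both chains moved alike: SLC7A5 was 1.26-fold lower in A549 and 2.59-fold higher in HCC827, and SLC3A2 was 1.23-fold lower and 1.87-fold higher.

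SLC1A5, the glutamine carrier ASCT2, had normalized counts of 5332 (vector) and 3989.6 (myr-AKT1) in A549 and 1365 (vector) and 3004 (myr-AKT1) in HCC827, 1.34-fold lower in A549 and 2.2-fold higher in HCC827. Of its exon bases, 23.4% overlap a non-coding gene on the opposite strand that had at most 16 reads in a library. SLC1A4, a related carrier of alanine and serine, had its reads at 598 (vector) and 302 (myr-AKT1) in A549 and 72 (vector) and 124 (myr-AKT1) in HCC827. Both A549 libraries held more reads than both HCC827 libraries, and the ratios were -0.59 (-0.80 to -0.39) in A549 and 1.45 (1.02 to 1.89) in HCC827 on the log2 scale.

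SLC7A1, the arginine carrier CAT1, and SLC38A2, the glutamine and alanine carrier SNAT2, were the transporters of the group called lower in A549. With size factors over the 4 libraries SLC38A2 was at -0.98 and no longer called. SLC7A1 had normalized counts of 2759.5 (vector) and 1219.6 (myr-AKT1) in A549 and 2445 (vector) and 3941 (myr-AKT1) in HCC827, 2.26-fold lower in A549 and 1.61-fold higher in HCC827. Of the 6 transporters SLC38A2 alone was lower in both lines, with 26635 (vector) and 12596 (myr-AKT1) in A549 and 13859 (vector) and 8071 (myr-AKT1) in HCC827. It was 2.11-fold lower in A549, at -1.08 (-1.11 to -1.05) on the log2 scale, and 1.72-fold lower in HCC827, at -0.78 (-0.82 to -0.74).

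The 10 cytosolic tRNA synthetases of the group, which load amino acids onto tRNA, and XPOT, which exports tRNA from the nucleus, were lower in A549 by small ratios and mostly higher in HCC827. In A549 all 11 had log2 fold changes below 0, with a median of -0.43, although CARS1 and SARS1 were at 0.06 and 0.01 with size factors over the 4 libraries. They ran from -0.73 for XPOT to -0.04 for CARS1, none called. In HCC827 8 of the 11 were above 0, with a median of 0.50, and WARS1 was called (14.1% of all genes were called higher). By counting interval 10 of the 11 were lower in A549 (36.5% of all genes) and 8 were higher in HCC827 (33.5%). WARS1, the tryptophan enzyme, which interferon also induces, had normalized counts of 3266 (vector) and 2436 (myr-AKT1) in A549 and 4613 (vector) and 13442 (myr-AKT1) in HCC827. It was 1.34-fold lower in A549 and 2.91-fold higher in HCC827.

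AARS1, the alanine enzyme, had normalized counts of 9749 (vector) and 7552 (myr-AKT1) in A549 and 6347 (vector) and 12374 (myr-AKT1) in HCC827, and was 1.29-fold lower in A549 and 1.95-fold higher in HCC827. GARS1, the glycine enzyme, had 6715 (vector) and 5043 (myr-AKT1) in A549 and 7462 (vector) and 12486 (myr-AKT1) in HCC827. It was 1.33-fold lower in A549 and 1.67-fold higher in HCC827. XPOT had 9635 (vector) and 5799 (myr-AKT1) in A549 and 5165 (vector) and 9096 (myr-AKT1) in HCC827, 1.66-fold lower and 1.76-fold higher in turn. The motif was present in the windows of AARS1 and GARS1 printed above and was not in that of XPOT.

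YARS1 and MARS1, for tyrosine and methionine, were lower in A549, at -0.59 (-0.66 to -0.51) and -0.43 (-0.49 to -0.37), and higher in HCC827, at 0.48 (0.42 to 0.54) and 0.50 (0.45 to 0.56). SARS1, for serine, had the smallest A549 change of the 19, at -0.09 (-0.17 to -0.01) in A549 and 0.31 (0.26 to 0.36) in HCC827. Of the 19, SARS1 alone did not keep opposite signs under every scaling. CARS1, for cysteine, was level in A549, at -0.04 (-0.12 to 0.04), and 1.66-fold higher in HCC827.

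NARS1, EPRS1 and TARS1, for asparagine, for glutamate with proline, and for threonine, were lower in both lines. Their log2 fold changes were -0.44, -0.46 and -0.49 in A549 and -0.18, -0.28 and -0.45 in HCC827. TARS1 had normalized counts of 9382 (vector) and 6683 (myr-AKT1) in A549 and 9385 (vector) and 6863 (myr-AKT1) in HCC827, and the motif was present past its start.

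STC2 and VLDLR, the secreted and surface genes with reads, were higher with myr-AKT1 in both lines. VLDLR, a lipoprotein receptor, had normalized counts of 555 (vector) and 1814 (myr-AKT1) in A549 and 785 (vector) and 1203 (myr-AKT1) in HCC827, which made it 3.27-fold higher in A549, the largest ratio of the group there, and 1.53-fold higher in HCC827. STC2, a secreted glycoprotein, had 411 (vector) and 544 (myr-AKT1) in A549 and 2311 (vector) and 4941 (myr-AKT1) in HCC827. It was 1.32-fold higher in A549 and 2.14-fold higher in HCC827.

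**Figure D3:**
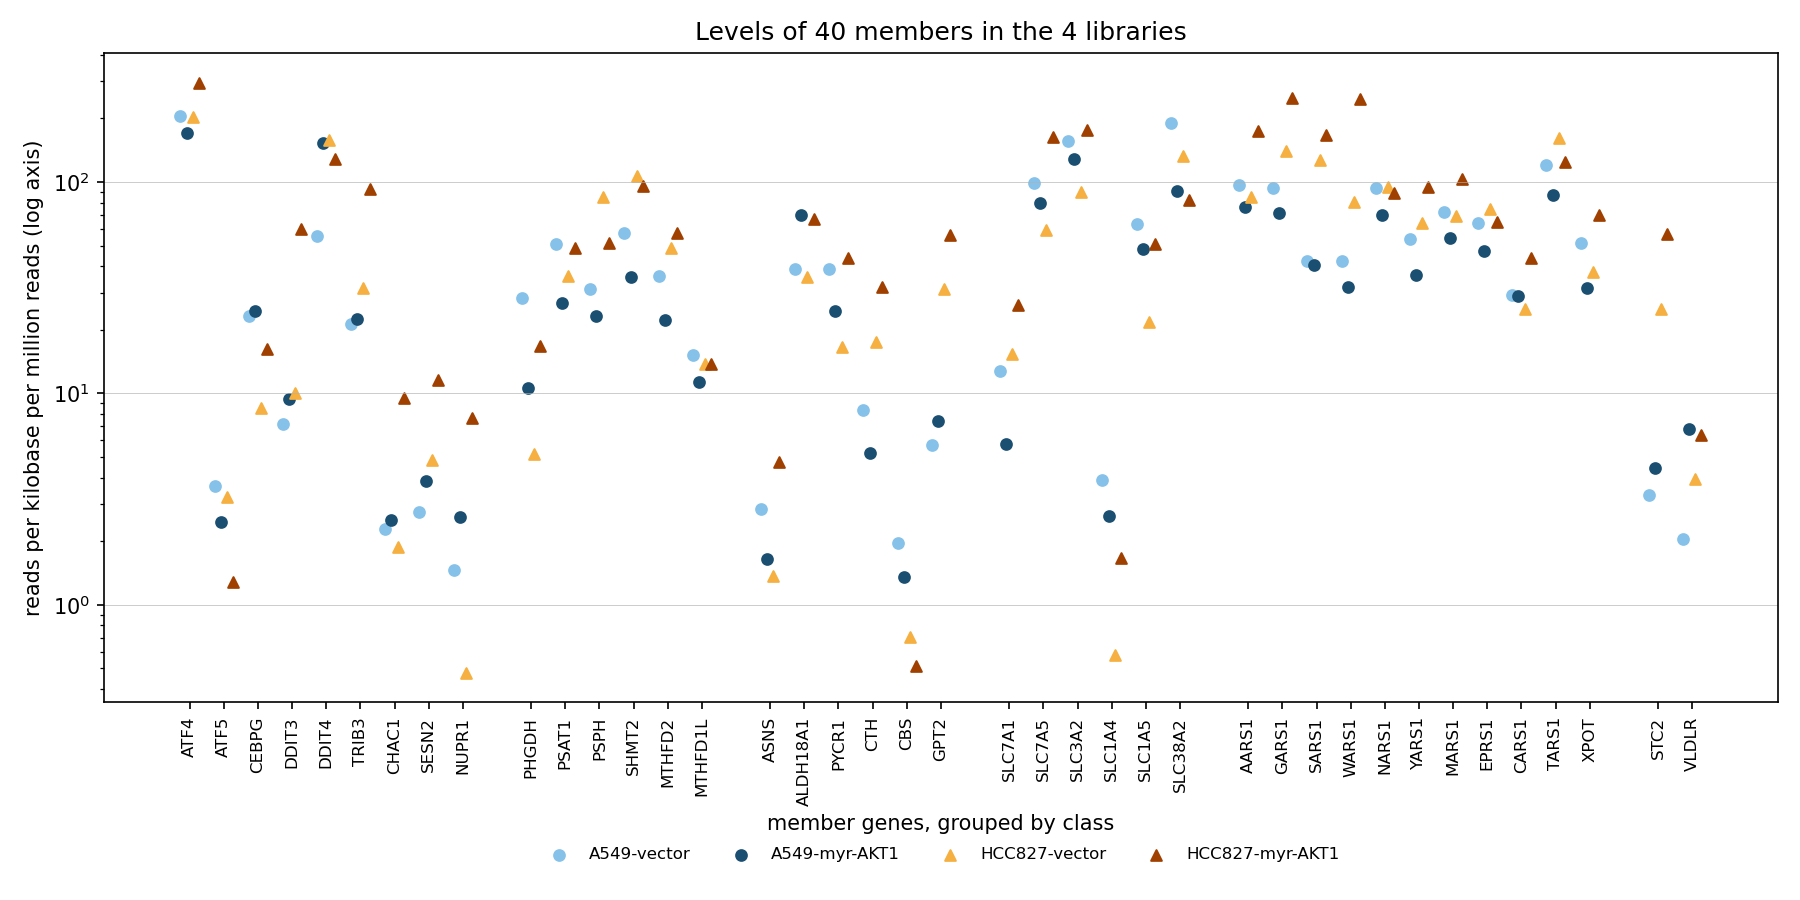
Level of 40 genes in each library in RPKM (y axis, log scale), computed from recovered reads, total recovered reads and the length of the canonical transcript; genes are grouped by class along the x axis and each symbol is 1 library. ATF4, SLC7A5, SLC3A2 and the 10 synthetases stood above 20 RPKM everywhere, and ASNS, CHAC1 and NUPR1 below 10 RPKM. The level of ASNS may be too low, since reads in the bases it shares with a non-coding gene could be uncounted. That of NUPR1 rests on a canonical transcript of 5291 bases and would be higher with a shorter one.

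Between the vector libraries, A549 and HCC827 differed by at least 1 on the log2 scale in 14 of the 40 genes. A549-vector was higher in 8, where 20.7% of all genes were called: CEBPG, NUPR1, PHGDH, ASNS, PYCR1, CBS, SLC1A4 and SLC1A5. It was lower in 6, where 19.7% of all genes were called: DDIT4, PSPH, CTH, GPT2, SARS1 and STC2. Both counts lay near the shares of all genes. PHGDH was 5.54-fold higher in A549-vector, SLC1A4 was 6.85-fold higher and STC2 was 7.49-fold lower, with log2 ratios of 2.47 (2.28 to 2.66), 2.78 (2.42 to 3.15) and -2.90 (-3.05 to -2.76). ATF4 was level between the vector libraries, at 0.02 (-0.02 to 0.06). This ratio shares its vector libraries with the changes within each line, so a gene that is high in A549-vector enters both comparisons.

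In a limma fit on log2(normalized count + 1) over the 4 libraries, with cell line as a term and 1 residual degree of freedom, 0 of 40 genes of the group passed a Benjamini-Hochberg adjusted p of 0.05, in either direction. Of all 19314 genes tested, 1.29% were called higher and 1.73% lower. At an unadjusted p under 0.05 the fit gave 8 genes of the group: DDIT3, SESN2, NUPR1, ALDH18A1, VLDLR and STC2 with higher values and PSPH and SLC38A2 with lower ones. The lowest adjusted p in limma was 0.109, for SLC38A2, with a log2 fold change of -0.93 (SE 0.26). ALDH18A1 had an adjusted p of 0.118 in limma, with a log2 fold change of 0.83 (SE 0.24). On recovered reads, the quasi-likelihood test of edgeR also called 0 of 40, with 7 at an unadjusted p under 0.05. The share of all genes under the unadjusted threshold is not given here, so these 2 counts cannot be read as many or few. The shares of 1.29% and 1.73% belong to the adjusted threshold. DESeq2 on the same reads called ALDH18A1 (adjusted p 0.0141) and SLC38A2 (adjusted p 0.0323). With a filter of 1 read in any library, limma called 5 of the group. No share of all genes is given for either setting, so neither count can be read as many or few. The fit averages the lines, so that changes in opposite directions offset each other by an amount that depends on their sizes. Of the 19 genes lower in A549 and higher in HCC827, PHGDH had a fitted value of 0.09 (SE 0.62). The lowest was -0.30 (SE 0.34) for PSAT1 and the highest 0.56 (SE 0.42) for WARS1.

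Of the genes around this group, the 8 eIF2 alpha kinases, their partners and phosphatase subunits had medians of -0.17 in A549 and 0.35 in HCC827. EIF2AK3, the kinase PERK of the endoplasmic reticulum, was higher in both lines, at 0.83 and 0.68, as was PPP1R15B, which directs phosphatase to eIF2 alpha, at 0.28 and 0.96. GCN1, which activates the amino acid sensor GCN2, was at -0.52 in A549 and 0.29 in HCC827. EIF2S1, the eIF2 alpha subunit itself, was lower in both lines, at -0.45 and -0.33.

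Further ATF4 targets outside the group were higher in HCC827 throughout. All 11 with enough reads had counting intervals above 0 there (33.5% of all genes did), with a median of 1.76, and 9 were called higher (14.1% of all genes). Both counts include INHBE, which had 1 read in HCC827-vector and 83 in HCC827-myr-AKT1. It reached a mean normalized count of 10 only through HCC827-myr-AKT1, so its place in these counts is no support for them. In A549 the median was -0.26, with 2 of 10 called higher (15.1% of all genes) and 3 lower (9.87%). SLC7A11, the cystine carrier, had normalized counts of 16327 (vector) and 11416 (myr-AKT1) in A549 and 1725 (vector) and 2344 (myr-AKT1) in HCC827, and EIF4EBP1, a repressor of translation, had 2785 (vector) and 1297 (myr-AKT1) in A549 and 2156 (vector) and 2573 (myr-AKT1) in HCC827. Both were lower in A549, at -0.52 (-0.55 to -0.48) and -1.10 (-1.20 to -1.0), and higher in HCC827, at 0.44 (0.35 to 0.53) and 0.26 (0.17 to 0.34). CEBPB and KLHL24 were higher in both lines, CEBPB at 1.36 and 1.41 and KLHL24 at 1.27 and 1.63. GDF15, a stress hormone chosen here after its values were seen, had normalized counts of 3019 (vector) and 1108 (myr-AKT1) in A549 and 469 (vector) and 3830.3 (myr-AKT1) in HCC827. It was 2.72-fold lower in A549 and 8.17-fold higher in HCC827.

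The ATF6 and XBP1 arm of the unfolded protein response, which raises chaperones of the endoplasmic reticulum, had medians of 0.25 in A549 and 0.42 in HCC827. Of its 17 genes 12 were higher in both lines by counting interval, where 18.0% of all genes were, and 1, PDIA6, was lower in A549 and higher in HCC827. DNAJB9 was at 1.31 in A549 and 1.35 in HCC827, and XBP1 at 0.82 and 1.30.

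Cytosolic synthetase genes outside the group were mostly lower in both lines. Of 13 such genes and scaffold proteins, 10 were lower in both lines by counting interval (24.1% of all genes were), and IARS1, named after its values were seen, was alone in being lower in A549 and higher in HCC827. Their medians were -0.88 in A549 and -0.37 in HCC827. FARSA and FARSB, the subunits of the phenylalanine enzyme, were at -1.06 and -1.30 in A549 and at -0.76 and -0.72 in HCC827, and QARS1, for glutamine, was at 0.08 and 0.05. The 17 mitochondrial synthetases had medians of -0.41 and -0.38, with 10 lower in both lines by counting interval (24.1% of all genes). Over all 20 cytosolic synthetase genes, in the group or not, the medians were -0.45 and -0.15. The difference between the sets was not tested.

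Of the other one-carbon enzymes, 8 of 13 were lower in both lines by counting interval (24.1% of all genes), with medians of -0.48 and -0.66. TYMS, which makes thymidylate, was 4.1-fold lower in A549 and 3.05-fold lower in HCC827. ALDH1L2, a mitochondrial folate enzyme, had its reads at 608 (vector) and 617 (myr-AKT1) in A549 and 7 (vector) and 19 (myr-AKT1) in HCC827.

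Other transporters and enzymes showed no common direction. The medians of other transporters were 0.04 in A549 and 0.45 in HCC827, and SLC38A1, the glutamine carrier SNAT1, was lower in both, at -1.47 and -0.86. SLC6A14 had its reads at 24 (vector) and 143 (myr-AKT1) in A549 and 1 (vector) and 81 (myr-AKT1) in HCC827, higher with myr-AKT1 in both lines. Other amino acid enzymes had medians of 0.56 and -0.18. GLUL, which makes glutamine, was 5.48-fold higher in A549 and 1.66-fold higher in HCC827, and ASS1, which joins citrulline to aspartate, was 2.25-fold higher and 3.7-fold higher. BCAT1, for branched-chain amino acids, was at -1.17 and -0.21.

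**Figure D4:**
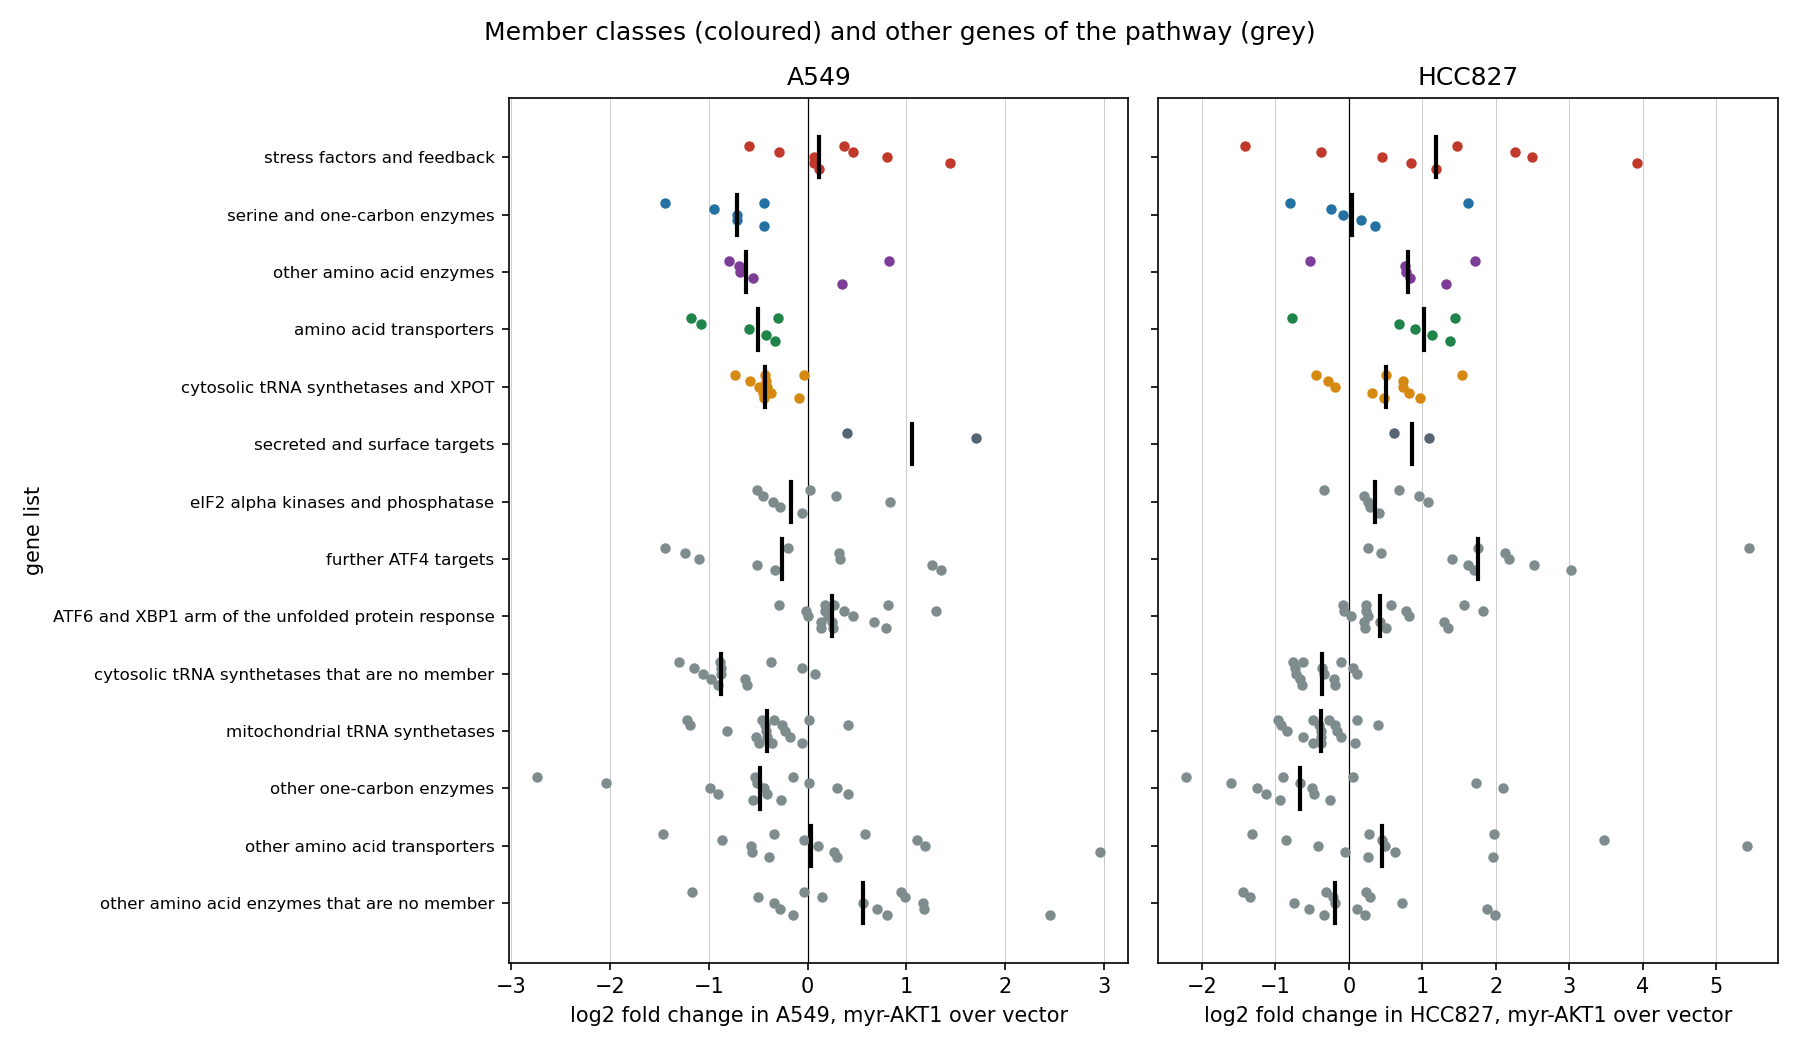
Log2 fold change of myr-AKT1 over vector for each gene (points) of the 6 classes (coloured) and the 8 lists around them (grey), in A549 (left) and HCC827 (right); black bars are medians. Transporters and synthetases of the group sit below 0 in A549 on the deposited scaling and mostly above it in HCC827, whereas most synthetases outside the group sit below 0 in both.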

How the data were processed

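RNA from vector and myr-AKT1 cells of A549 and HCC827 was sequenced as 4 strand-specific libraries; the Methods describe poly(A) selection whereas the labels give ribosomal RNA depletion. Reads were trimmed by the authors and mapped to hg38 with Bowtie2, an aligner that does not split reads over introns, so reads over exon junctions may be lost, and counted them per gene with HTSeq. In the deposited signal, reads were divided by the library's size factor, set within a cell line, although the Methods name RPKM. Whole reads were recovered within a tolerance of 0.001 for all genes except 1 in each vector library. Gene names came from GENCODE release 44, which matched 60261 of 60558 identifiers.

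The genes and lists were chosen with earlier results of these data known. Of each list outside the group, the 2 highest and the 2 lowest genes by mean log2 fold change were eligible to be named, along with AKT1; the text gives most of them, and some are not reported here. GDF15, IARS1 and INHBE fall outside this rule and were named after their values were seen. Log2 ratios within a line used the deposited values, with a floor of 3 reads and 95% Clopper-Pearson intervals. The vector libraries were compared on size factors over the 4 libraries, and RPKM used total recovered reads and canonical transcript lengths. The combined fit used limma 3.58.1 with a trend, a pseudocount of 1 and edgeR's filter on low values. It has 1 residual degree of freedom and was tested on simulated data, where it made more false calls than edgeR or DESeq2. The simulated data gave both lines the same changes, so they do not cover genes whose change differs between the lines. Replicate numbers are not given in the labels. Alternatives were edgeR 4.0.16, DESeq2 1.42.0, other scalings, pseudocounts, filters and thresholds, and for the pattern of opposite signs 3 kinds chosen after seeing the data. Software also included R 4.3.3, Python 3.11.15, numpy 2.4.6, scipy 1.17.1, pandas 2.3.3 and matplotlib 3.10.9.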

Additional observations from a re-analysis of the deposited data

Results flagged for a closer look

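In 20 genes of the group the myr-AKT1 library lay on opposite sides of its vector library in A549 and in HCC827, with both 95% counting intervals past 0. Of all 15704 genes compared in both lines, 7.27% were lower in A549 and higher in HCC827, and 7.39% were the reverse. No test of the difference between the lines was possible, because each line has 1 library per condition. The log2 fold changes follow, first in A549 and then in HCC827. Of the stress factors, ATF4 stood at -0.29 and 0.46 and DDIT4 at 1.44 and -0.39. Of the serine and one-carbon enzymes, PHGDH stood at -1.44 and 1.63, PSAT1 at -0.95 and 0.36 and MTHFD2 at -0.71 and 0.16. Of the other amino acid enzymes, ASNS stood at -0.80 and 1.72, PYCR1 at -0.68 and 1.32 and CTH at -0.70 and 0.78. Of the transporters, SLC7A1 stood at -1.18 and 0.69, SLC7A5 at -0.33 and 1.37, SLC3A2 at -0.30 and 0.90, SLC1A4 at -0.59 and 1.45 and SLC1A5 at -0.42 and 1.14. Of the synthetases and XPOT, AARS1 stood at -0.37 and 0.96, GARS1 at -0.41 and 0.74, SARS1 at -0.0899 and 0.31, WARS1 at -0.42 and 1.54, YARS1 at -0.59 and 0.48, MARS1 at -0.43 and 0.50 and XPOT at -0.73 and 0.82. DDIT4 was the only one of them higher in A549 and lower in HCC827. SARS1 was at 0.01 in A549 with size factors taken over the 4 libraries.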

How the results depend on the processing

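With a log2 fold change of 2 in place of 1, genes of the group called were 0 higher and 0 lower in A549 and 3 higher and 0 lower in HCC827. Between the vector libraries they were 2 higher and 2 lower. The stricter threshold itself lowers these counts. Shares of all genes at that threshold are not given here, so the counts cannot be read as many or few. At a log2 fold change of 1, each count of called genes stayed within 1.5 times its value under the other scalings run for each and a minimum mean of 50. The same held for counts within a line with a pseudocount of 1 or a filter of 1 read in the pair. Size factors over the 4 libraries moved the median log2 fold change of all genes in A549 by 0.10, and called 2 genes of the group lower there, with SLC38A2 at -0.98. Under TMM, total reads and size factors over the 4 libraries, 18 of 40 genes were lower in A549 and higher in HCC827. The shares of all genes were 6.67%, 8.28% and 6.31% in turn. With both changes past 0.25 the number was 17 of 40, against 4.44% of all genes. Among genes whose mean normalized count reached 500 it was 15 of 29, against 10.1% of all such genes.

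In the limma fit, 250 genes of all were called higher and 335 lower. DESeq2 called 616 and 516, a filter of 1 read in any library 1101 and 894, TMM 42 and 96, and a pseudocount of 0.1 or no cell line term 0 and 0; edgeR called 196 and 228. For the group, limma called 0 and 0, DESeq2 called 1 higher (ALDH18A1, adjusted p 0.0141) and 1 lower (SLC38A2, adjusted p 0.0323), and the looser filter called 4 higher (ALDH18A1, VLDLR, DDIT3 and NUPR1) and 1 lower (SLC38A2). Shares of all genes called by DESeq2 or under the looser filter are not given here, so these calls cannot be read as many or few. The cause of the differences between settings was not tested. The labels carry no replicate numbers; the cell line term pairs the libraries of a line, and the fit without that term is the unpaired one. Leaving out a library would leave no residual degree of freedom and was not run. With 1 culture per condition, counting error is the only error that could be given for a change within a line, and the few reads of ASNS, ATF5, CHAC1 and CBS give wide intervals.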
